A study of Mus musculus with 4 samples.

Results

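The proteasome subunit genes of the mouse were examined in ribosome profiling (Ribo-seq) of primary myoblasts. Members were the protein-coding genes of the deposited table whose symbol begins with Psma, Psmb, Psmc, Psmd, Psme, Psmf or Psmg followed by a digit, and 50 of 55573 genes (21900 of them protein-coding) met this rule. A further 4 genes with such names were pseudogenes and were left out. By textbook role the 50 were 7 alpha ring subunits, 7 constitutive and 3 inducible beta ring subunits, 6 ATPases, 3 non-ATPase base subunits, 8 lid subunits, 5 activators and 7 assembly chaperones. The other members were the testis alpha subunit Psma8, the thymus beta subunit Psmb11, the inhibitor Psmf1 and Psmc3ip, which matches the name rule but encodes a meiotic recombination protein and no subunit.

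The proteasome degrades proteins tagged with ubiquitin. Its core particle is a barrel in which alpha rings guard the entrance and beta rings carry the proteolytic sites, and a regulatory particle at either end recognises ubiquitin (base and lid), removes it and unfolds the substrate with a ring of ATPases. In muscle, the proteasome is the main route for breakdown of contractile proteins during atrophy, and it also degrades short-lived myogenic regulators such as MyoD.

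Ribo-seq sequences the fragments of mRNA that ribosomes protect from nuclease. The cells were hind-limb myoblasts from 3-week-old mice, cultured with FGF at 10 μg/ml and collected on day 2 after cycloheximide at 100 μg/ml, for 10 min by the sample descriptions and for a shorter time by the methods. There were 2 libraries labelled WT and 2 labelled eIF5A knockout (KO), described as duplicate experiments. Whether they came from separate mice or cultures is not stated, so that p-values measure the spread between these libraries, which may be technical. KO mice were Pax7CreERT2/+;eIF5A f/f in the C57BL/6j background, given tamoxifen, so that the deletion takes place only in cells that expressed Pax7 when tamoxifen was given, and their descendants carry it. WT littermates served as controls, and the sources used here do not settle whether those carried the Cre. Whether the controls of this experiment also received tamoxifen was not given in the sources used here.

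The libraries held between 642429 and 704006 gene-assigned reads, of which protein-coding genes took 41.5% and 33.9% in WT against 65.4% and 59.2% in the labelled-KO libraries. Counts of reads below are not scaled for this, RPKM are, and groups are said to overlap or not by RPKM. Eif5a, the targeted gene, had 50 and 73 reads in WT against 130 and 114 in the labelled-KO libraries, or 34.9 and 65.2 against 60.3 and 59.4 RPKM, with overlap. Its log2 difference, on the scale of log2(RPKM + 1) where RPKM are reads scaled to gene length and library size, was 0.32 ± 0.48 (SE), with an adjusted p = 0.839 in limma. Footprints of the targeted gene were thus not lower in the libraries labelled KO, so every direction below is between labels and not between measured levels of eIF5A. Of 8 myoblast markers, 7 were tested, all 7 had a negative difference and 6 had both libraries labelled KO below both WT, beside 19.3% of tested protein-coding genes. Their summed level was 318 and 188 RPKM in WT against 68.7 and 112 RPKM in the libraries labelled KO, and Msc had 2 reads in all. Among them Myod1, the myogenic regulator, had 140 and 117 RPKM in WT against 48.6 and 79.8 RPKM in the labelled-KO libraries (log2 difference -1.03 ± 0.48, adjusted p = 0.676 in limma). Myog, a marker of differentiation, had 82 reads in WT replicate 1 and between 1 and 3 in each of the other libraries. The 8 fibroblast markers summed to 270 to 461 RPKM in WT against 346 to 775 RPKM in the labelled-KO libraries, with 6 of 8 above 0 in difference. The 5 endothelial markers, all 5 with a positive difference, summed to 106 and 99.8 RPKM in WT against 139 and 112 RPKM in the labelled-KO libraries. Of the 8 immune markers, which summed to 50.6 to 64.4 RPKM in every library, Itgam was at 0 in all 4 libraries and Ptprc had 5, 0, 6 and 0 reads. The summed levels of the fibroblast and immune lists overlapped between groups and those of the myoblast and endothelial lists did not, and the part of these levels in the results below was not tested. In bulk samples fewer cells of a type and less RNA per cell cannot be told apart.

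Most proteasome genes had more footprints in the libraries labelled KO, and none passed the test after adjustment. Of the 50 members, 47 reached the mean of 1 RPKM required for testing. The log2 difference was positive for 43 of the 47, beside 53.1% of the 9877 tested protein-coding genes, and its median was 0.65, beside 0.05 for those genes. Both libraries labelled KO lay above both WT libraries in 27 of 47 members, beside a background of 22.4%, and below them in 1 (Psme4), beside 19.3%. Among genes with a mean of at least 5 RPKM, they lay above in 27 of 43 members, beside 27.2%, and the median was 0.69, beside 0.16. Among genes with at least 40 reads, they lay above in 25 of 41, beside 25.4%. At an unadjusted p under 0.05 there were 6 members higher (Psma6, Psmb5, Psmc6, Psmd10, Psmd14 and Psmg2), beside 2.94% of tested protein-coding genes, and 0 lower, beside 3.04%. At an adjusted p under 0.05 limma called 0 members, where it called 0.106% of all 11363 tested genes, and the smallest adjusted p of a member was 0.549. A fit by limma-voom on the reads also called 0 members, with 9 higher at an unadjusted p under 0.05, beside 4.17%. The 4 members with a negative difference were Psmd9 (-0.35), Psme4 (-0.23), Psmb9 (-0.18) and Psmd8 (-0.09), and all 4 became positive when libraries were scaled to total reads, as described for Psme4 in its class. WT replicate 1 was the lowest of the 4 libraries for 35 of 47 members (74.5%), as it was for 32.3% of tested protein-coding genes. Without that library the median difference of the members was 0.31 and 30 of 47 had the libraries labelled KO above the remaining WT library, beside 38.6% of tested protein-coding genes. Without WT replicate 2 the median was 0.99. The 6 members at an unadjusted p under 0.05 became 2 without WT replicate 1 (beside 3.74% of tested protein-coding genes), 20 without WT replicate 2 (7.50%), 1 without the labelled KO replicate 1 (0.871%) and 0 without the labelled KO replicate 2 (1.25%). Of the 6, Psmc6, Psmd10 and Psmd14 did not pass that p with the trend on GC content and length removed, nor under the replicate block or scaling to protein-coding reads. By limma-voom Psmb5, Psmg2 and Psmd10 did not pass it.

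**Figure D1:**
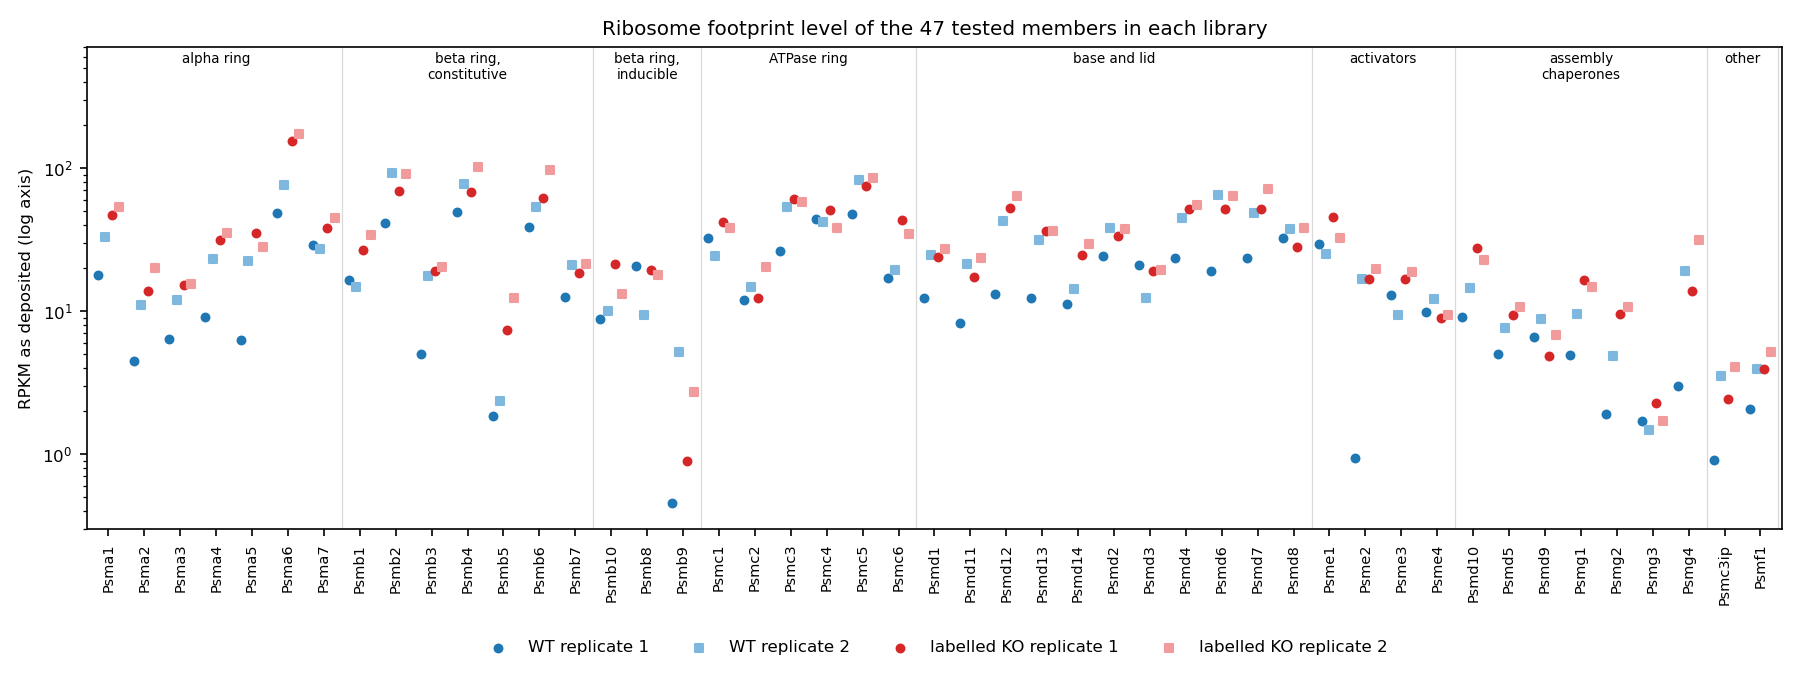
RPKM as deposited (vertical, log axis) of each of the 47 tested members in the 4 libraries, grouped by role; blue points are WT and red points are the libraries labelled KO. WT replicate 1 is the lowest point for 35 of the 47 genes, and Psma6 reaches the highest values, 155 and 174 RPKM, in the libraries labelled KO.

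The alpha ring, whose tails gate the entrance of the core particle, was the class in which every subunit had both libraries labelled KO above both WT (7 of 7, background 22.4%), with a median log2 difference of 1.11 (0.55 without WT replicate 1 and 1.67 without WT replicate 2). Psma6 was the most abundant alpha subunit, and its gene lies at chr12:55384222-55418454 (GRCm38, plus strand). It had 36 and 44 reads in WT against 173 and 173 in the labelled-KO libraries, or 48.4 and 75.7 against 155 and 174 RPKM. The group means were 62.0 ± 19.3 and 164 ± 13.4 RPKM (SD, n = 2), so the groups were apart by more than the spread within either. The difference was 1.42 ± 0.48 on the log2 scale (SE) with an adjusted p = 0.665 in limma. Psma2, the lowest in RPKM, had 10 and 19 reads in WT against 46 and 59 in the labelled-KO libraries. Its log2 difference was 1.11 ± 0.51. Psma7 had 54 and 39 reads against 106 and 111, the smallest log2 difference of the ring at 0.54 ± 0.40. The other 4 subunits lay between, with log2 differences of 0.75 for Psma3, 1.00 for Psma1, 1.12 for Psma4, whose tail is a main part of the closed gate, and 1.31 for Psma5. Psma5, Psma4, Psma3 and Psma2 share 65.7%, 41.8%, 28.9% and 10.4% of their 28-base words with transcripts of other genes, pseudogenes among them, so that their counts depend on how reads with several matches were handled. Psma6, Psma1 and Psma7 share 0.59%, 0.17% and 0%. Summed over the ring, 165 and 210 reads in WT stood against 613 and 616 in the libraries labelled KO, which was 0.0613% and 0.0965% against 0.133% and 0.160% of protein-coding reads.

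The constitutive beta ring, which holds the proteolytic sites, had 7 of 7 differences positive (6 of 7 after the GC and length correction), 4 of 7 without overlap (background 22.4%) and a median of 0.75 (0.17 without WT replicate 1 and 0.43 without the labelled KO replicate 2). Its share of protein-coding reads was 0.0788% and 0.118% in WT against 0.112% and 0.162% in the labelled-KO libraries, with overlap (exact permutation p = 0.667). Its 3 catalytic subunits differed widely in level. Psmb6, the caspase-like subunit, had 44 and 47 reads in WT against 105 and 146 in the labelled-KO libraries, or 46.1 ± 10.1 against 79.2 ± 24.5 RPKM (SD, n = 2). Its log2 difference was 0.75 ± 0.47 (SE). Psmb7, the trypsin-like subunit, had 26 and 34 reads in WT against 57 and 59 in the labelled-KO libraries, and its log2 difference of 0.26 ± 0.43 had overlapping groups after scaling, since 21.1 RPKM in WT replicate 2 exceeded 18.4 RPKM in the labelled KO replicate 1. It turned to -0.015 after the GC and length correction and to -0.087 without WT replicate 1. Psmb5 (chr14:54614119-54618022, minus strand), the chymotrypsin-like subunit and the target of proteasome inhibitor drugs, had 1 and 1 reads in WT against 6 and 9 in the labelled-KO libraries. Since 3 reads were taken as the floor of each library and neither WT count reached it, the labelled-KO mean was set against that floor. It was 1.57-fold the floor, which takes the counts of 6 and 9 as exact and is no sure lower limit. The fitted log2 difference of Psmb5, 1.77 (unadjusted p = 0.00516, adjusted p = 0.549 in limma), depends on the pseudocount and is no bound either. Of its 28-base words, 76.4% occur in transcripts of other genes, most of them in the pseudogene Gm3375, and its count is uncertain for that reason. With Psmb5 set at its ratio to the floor, the median of the ring was 0.65. Among the structural subunits, Psmb4 was the most abundant with 58 and 71 reads in WT against 120 and 159 in the labelled-KO libraries, and a log2 difference of 0.42 ± 0.49 (0.098 without WT replicate 1 and 0.13 without the labelled KO replicate 2). Psmb1 had 46 and 32 against 111 and 126 reads and did not overlap between groups (log2 difference 0.90). Psmb3 (0.97, no overlap) and Psmb2 (0.35, overlap) completed the ring, and Psmb3 shares 68.3% of its words with other transcripts.

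The inducible subunits Psmb8, Psmb9 and Psmb10 replace Psmb5, Psmb6 and Psmb7 in the immunoproteasome, a form that interferon induces and that generates peptides for antigen presentation. Psmb8 had 42 and 15 reads in WT against 59 and 49 in the labelled-KO libraries, and the groups overlapped at a log2 difference of 0.38 ± 0.48. It turned to -0.14 without WT replicate 2 and was 0.91 without WT replicate 1. Psmb10 had 9 and 8 against 33 and 18 reads, without overlap, at 0.78 ± 0.42. Psmb9 had 1 and 9 against 3 and 8 reads, with overlap, at -0.18 ± 0.82, and the span of its gene overlaps Tap1 on the opposite strand. Together the inducible subunits took 42.3% (95% Wilson interval 33.9% to 51.1%) and 28.1% (20.6% to 36.9%) of the reads of these 6 catalytic subunits in WT. In the libraries labelled KO they took 36.1% (30.6% to 42.1%) and 26.0% (21.2% to 31.3%). The means were 35.2% ± 10.0 and 31.0% ± 7.19 (SD, n = 2), and replicates of either group lay further apart than the group means. The exact two-sided permutation test gave p = 0.667, where a design of 2 against 2 cannot go below 0.333. The difference of -4.14 percentage points turned to 2.97 without WT replicate 1 and to 0.95 without the labelled KO replicate 2. Psmb5 gave 1 and 1 of the constitutive reads in WT against 6 and 9 in the labelled-KO libraries, and Psmb6 and Psmb7 gave the others.

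**Figure D2:**
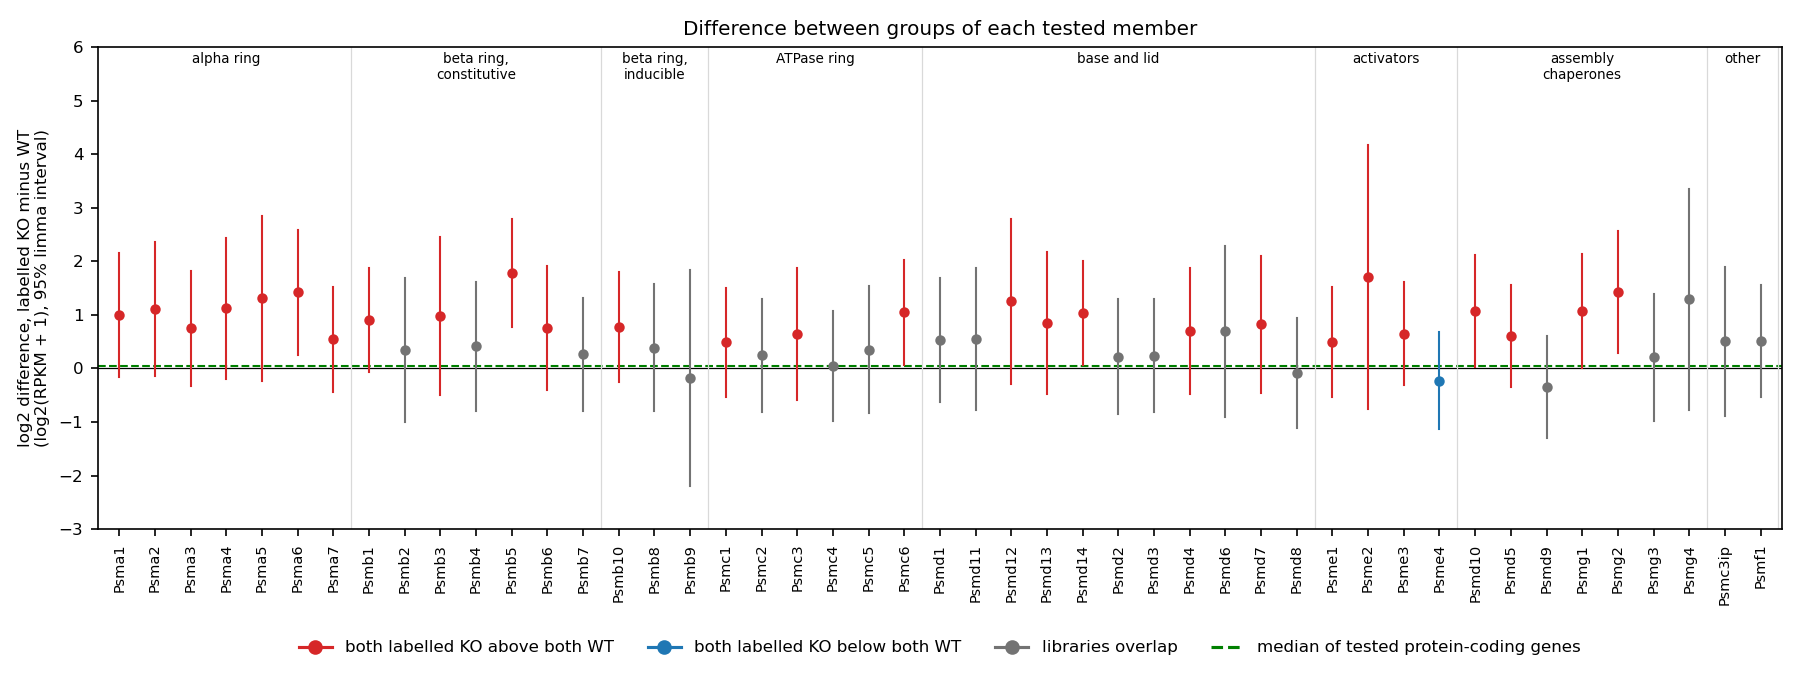
Log2 difference (vertical axis, libraries labelled KO minus WT, on log2(RPKM + 1)) of each tested member with its 95% limma interval; red marks the 27 genes with both libraries labelled KO above both WT, blue the 1 gene below, and the dashed line the median of tested protein-coding genes (0.05). All 7 alpha subunits are red, and the intervals of 41 of the 47 genes include 0.

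The ATPases form the ring that unfolds substrates and opens the gate. All 6 had a positive difference, 3 without overlap (background 22.4%), at a median of 0.42 (0.12 without WT replicate 1). Psmc5 turned to -0.038 without WT replicate 1, Psmc2 to -0.10 without the labelled KO replicate 2 and Psmc4 to -0.16 without the labelled KO replicate 1. Psmc6 (chr14:45329788-45349705, plus strand) had 36 and 32 reads in WT against 137 and 98 in the labelled-KO libraries, or 18.2 ± 1.66 against 38.9 ± 6.01 RPKM (SD, n = 2). Its log2 difference was 1.05 ± 0.40 (SE), with an adjusted p = 0.672 in limma. Psmc4 was nearly level, with 57 and 43 reads against 100 and 67, which after scaling was 43.7 and 42.2 against 51.0 and 38.4 RPKM and a log2 difference of 0.04 ± 0.42 that turned to -0.071 under scaling to protein-coding reads. Its 95% interval ran from -0.99 to 1.07, which leaves room for a change of about the size seen for Psmc6. Psmc5, the most abundant ATPase in RPKM, had 40 and 54 against 95 and 96 reads (log2 difference 0.35), and Psmc2, the least abundant, had 36 and 35 against 56 and 83 reads (0.24), both with overlap. Psmc3 (0.64) and Psmc1 (0.48) did not overlap between groups, and Psmc1 shares 44.1% of its words with other transcripts.

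In the base and lid, which bind and remove ubiquitin, 10 of 11 subunits had a positive difference, 5 of 11 had no overlap (background 22.4%), and the median was 0.69 (0.21 without WT replicate 1 and 1.18 without WT replicate 2). Psmd14, the metalloprotease that cuts ubiquitin chains off the substrate, had 19 and 19 reads in WT against 63 and 67 in the labelled-KO libraries. This was 12.7 ± 2.21 against 27.0 ± 3.38 RPKM (SD, n = 2), a log2 difference of 1.03 ± 0.39 (SE) and an adjusted p = 0.672 in limma. Psmd7, its inactive partner in the lid, had 32 and 52 against 106 and 130 reads (0.82, no overlap). Psmd12 was at 1.25 ± 0.62, and at 0.44 without WT replicate 1 (where Psmd14 was at 0.87) and 2.06 without WT replicate 2. Its WT libraries, at 21 and 53 reads (13.1 and 42.5 RPKM), were far apart, and the libraries labelled KO had 126 and 137 reads (52.4 and 64.0 RPKM). Psmd6, the most abundant lid subunit, showed the same spread, with 19.0 RPKM in WT replicate 1 (32 reads) and 64.4 RPKM in WT replicate 2 (85 reads). Its libraries labelled KO, at 52.0 and 63.2 RPKM (132 and 143 reads), lay between those. Psmd11 had 32 and 64 against 100 and 121 reads (0.55, overlap), and turned to -0.076 without WT replicate 1 (1.18 without WT replicate 2). The ubiquitin receptor Psmd4 (0.69) and Psmd13 (0.85) did not overlap between groups, and the scaffolds Psmd1 (0.52) and Psmd2 (0.22) and Psmd3 (0.24) did. Psmd8 was the only member of the class below 0, with 60 and 54 reads against 78 and 94, or 32.6 and 37.5 against 28.1 and 38.1 RPKM, and a log2 difference of -0.09 ± 0.42.

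The activators are alternative caps that open the core particle without ubiquitin. Of the 4 tested, 3 had a positive difference and no overlap (background 22.4%), at a median of 0.57 (0.35 without WT replicate 1). Removing the trend on GC content and coding length left 0 of 4 without overlap, and their median was 0.31. Psme1 and Psme2 form the interferon-induced cap. Psme1 had 39 and 26 reads in WT against 91 and 58 in the labelled-KO libraries, without overlap, at a log2 difference of 0.49 ± 0.42. Psme2 had 1 and 14 against 27 and 28 reads, and its difference of 1.71 ± 1.00 rested on the 1 read of WT replicate 1, since WT replicate 2 (16.8 RPKM) and the labelled KO replicate 1 (16.9 RPKM) were alike. It shares 67.7% of its words with other transcripts, mostly with its copy Psme2b, which had 1 read in the 4 libraries. Psme3, which forms a nuclear cap, had 23 and 13 against 45 and 45 reads (0.65, no overlap). Psme4 (chr11:30771726-30880361, plus strand), the large cap that acts in histone turnover, was the 1 member whose libraries labelled KO were both lower, at 8.94 and 9.45 RPKM (68 and 64 reads) against 9.89 and 12.2 RPKM (50 and 48 reads). The gap between the nearest libraries was within the WT spread (11.0 ± 1.60 RPKM, SD, n = 2), the log2 difference was -0.23 ± 0.37, and it became positive, 0.33, when libraries were scaled to total reads, a scaling that put the median of tested protein-coding genes at 0.54. The inhibitor Psmf1 had 8 and 12 against 23 and 27 reads, with overlap at 3.95 and 3.94 RPKM, and a log2 difference of 0.51 ± 0.42.

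The assembly chaperones, which build the rings and do not stay in the particle, had 6 of 7 differences positive, 4 of 7 without overlap (background 22.4%) and a median of 1.07 (0.35 without WT replicate 1). Psmg2, which works with Psmg1 in assembling the alpha ring, had 2 and 4 reads in WT against 15 and 15 in the labelled-KO libraries, at a log2 difference of 1.42 ± 0.46 and an adjusted p = 0.660 in limma. Psmg1 had 4 and 6 against 20 and 16 reads (1.07, no overlap). Psmd10, a chaperone of the base also known as an oncoprotein, had 8 and 10 against 37 and 27 reads (1.07 ± 0.42, no overlap, adjusted p = 0.672 in limma). These are small counts, and WT replicate 1 of Psmg2, at 2 reads, was under the floor of 3 reads. Psmg3 was lowest, at 3 and 2 against 6 and 4 reads, and Psmg4 had 1 and 5 against 7 and 14 reads, both with overlap after scaling. Psmd5 had 22 and 26 against 62 and 62 reads (0.61, no overlap). Psmd9, which shares the role of base chaperone with Psmd5 and Psmd10, went the other way, with 29 and 30 reads in WT against 32 and 40 in the labelled-KO libraries, or 6.64 and 8.79 against 4.87 and 6.83 RPKM (-0.35 ± 0.39, overlap). Psmc3ip, no subunit, had 1 and 3 against 4 and 6 reads, with both WT libraries at or under the floor. Its fitted log2 difference of 0.51 ± 0.56 turned to -0.11 without WT replicate 1. Psma8 had 0 reads in all 4 libraries and Psmb11 had 1, 0, 0 and 2, so the testis and thymus subunits stayed at or under the floor.

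**Figure D3:**
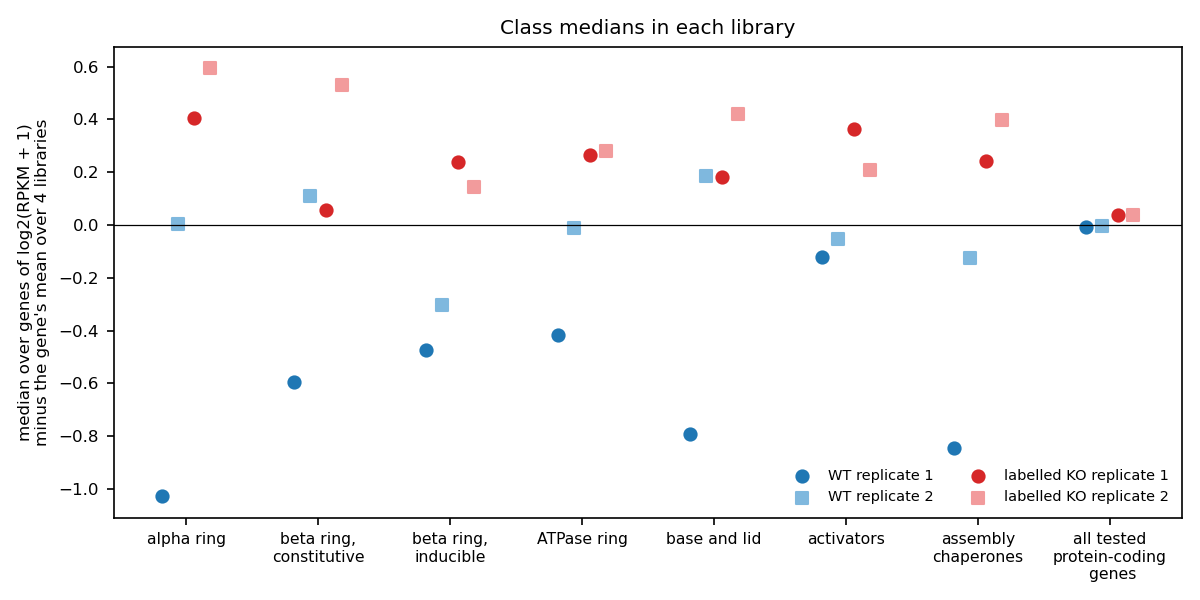
Median over the genes of each class of log2(RPKM + 1) minus the gene's mean over the 4 libraries (vertical axis), by library. The alpha ring runs from -1.03 in WT replicate 1 over 0.00 in WT replicate 2 to 0.41 and 0.59 in the libraries labelled KO, while all tested protein-coding genes stay between -0.01 and 0.04.

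The share of footprints that went to the proteasome was taken from unscaled reads, and it depends on which reads it is a share of. All members together took 0.485% (95% Wilson interval 0.460% to 0.512%) and 0.721% (0.687% to 0.758%) of protein-coding reads in WT, and 0.756% (0.731% to 0.781%) and 0.916% (0.886% to 0.946%) in the libraries labelled KO. The mean was 0.603% ± 0.167 in WT against 0.836% ± 0.113 in the labelled-KO libraries (SD, n = 2). The groups did not overlap, and the exact two-sided permutation test gave p = 0.333, the smallest it can give here. The difference of 0.232 percentage points became 0.114 without WT replicate 1, 0.350 without WT replicate 2 and 0.152 without the labelled KO replicate 2. WT replicate 2 and the labelled KO replicate 1 had intervals that overlapped. The core particle took 0.160% and 0.229% in WT against 0.266% and 0.342%. The regulatory particle took 0.255% and 0.401% against 0.395% and 0.468%, so that its groups overlapped (exact permutation p = 0.667), and its difference of 0.104 percentage points became 0.0303 without WT replicate 1. Over all gene-assigned reads in place of protein-coding reads, all members took 0.201% and 0.244% in WT against 0.494% and 0.542%, and the regulatory particle took 0.106% and 0.136% against 0.258% and 0.277%, without overlap. Ratios between classes within a library need no scaling between libraries. Reads of the alpha ring over those of the constitutive beta ring were 0.778 and 0.820 in WT against 1.19 and 0.986 in the labelled-KO libraries. Reads of the alpha ring over those of the base and lid were 0.378 and 0.338 against 0.505 and 0.483, and over those of the ATPases 0.665 and 0.833 against 1.01 and 1.17. Reads of the core over those of the regulatory particle were 0.628 and 0.570 against 0.672 and 0.732. None of these 4 ratios overlapped between groups, at exact permutation p = 0.333 each, which is also 0.333 after Benjamini-Hochberg adjustment over the 4. All 4 count reads of the alpha ring, the class already seen apart above, so they are not independent and add no separate support. The median coding GC content was 45.1% for the alpha ring and 54.6% for the constitutive beta ring, and the part of GC content in these ratios was not tested.

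**Figure D4:**
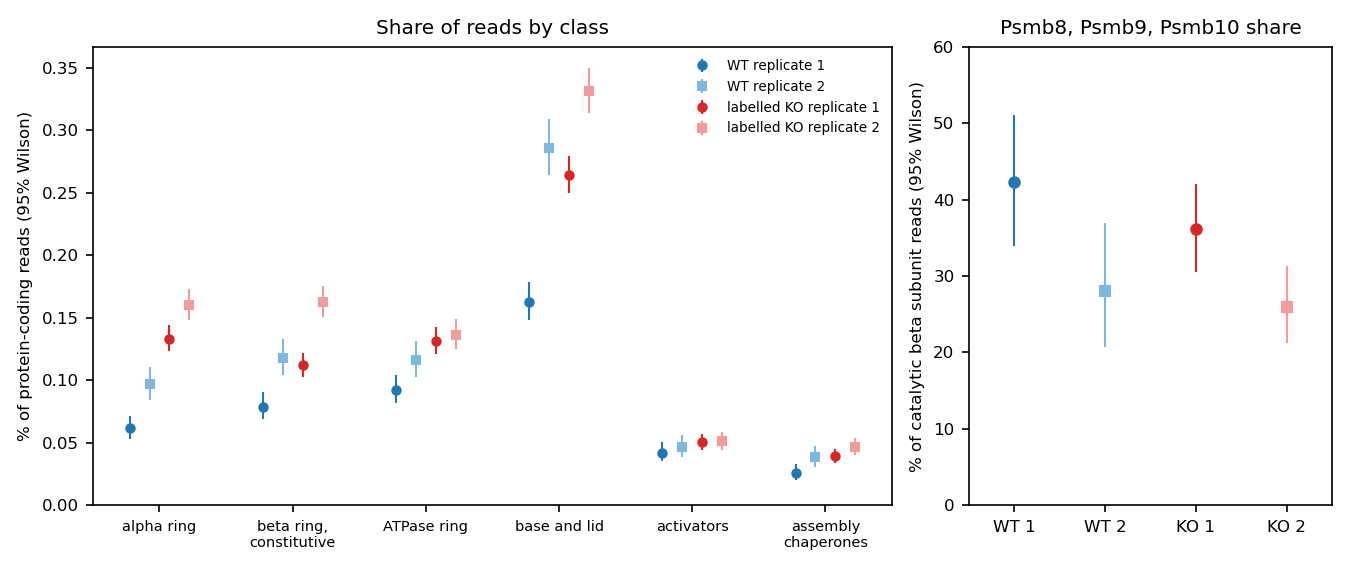
Left, percent of protein-coding reads on each class in each library; right, percent of the reads of the 6 catalytic beta subunits that fell on Psmb8, Psmb9 and Psmb10; bars are 95% Wilson intervals, which cover counting error only. The alpha ring lies above WT in both libraries labelled KO (0.133% and 0.160% against 0.0613% and 0.0965%), and the inducible share overlaps between groups.

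Each subunit of a ring is present in the assembled ring in the same number, and levels per length can be set against that. Per kilobase of coding sequence, on the deposited library scale and as the mean of the 4 libraries, the 6 ATPases were within 1.92-fold of one another, from 49.9 for Psmc1 to 95.5 for Psmc3, with a coefficient of variation of 25.3%. The 8 lid subunits were within 2.12-fold, from 56.2 for Psmd3 to 119 for Psmd6 (coefficient of variation 25.6%). The alpha ring was wider, 4.50-fold from 42.0 for Psma5 to 189 for Psma6 (53.7%). The constitutive beta ring ran from 6.80 for Psmb5, whose WT libraries were under the floor of 3 reads so that no fold is given, to 182 for Psmb4 (58.3%). The lowest values of these last rings were those of Psma5 and Psmb5, which share 65.7% and 76.4% of their words with other transcripts. Psmb3, which shares 68.3%, was at 58.2, and the part of shared words in these levels was not tested. By library, the coefficient of variation of the alpha ring was 75.2% and 41.5% in WT against 55.9% and 57.6% in the labelled-KO libraries. That of the ATPases was 21.5% and 37.4% against 37.1% and 27.1%, so that both overlapped between groups. The lid had 43.8% and 41.1% against 24.4% and 28.8%, the constitutive beta ring 66.4% and 61.5% against 55.0% and 61.3%, and the non-ATPase base 34.5% and 38.8% against 53.0% and 49.5%. These last 3 did not overlap, the lid and the constitutive beta ring being narrower and the base wider in the libraries labelled KO. Their differences were not tested, and 2 against 2 libraries cannot give an exact permutation p below 0.333. Reads of these classes were fewer in WT, and the part of counting error in these spreads was not tested.

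**Figure D5:**
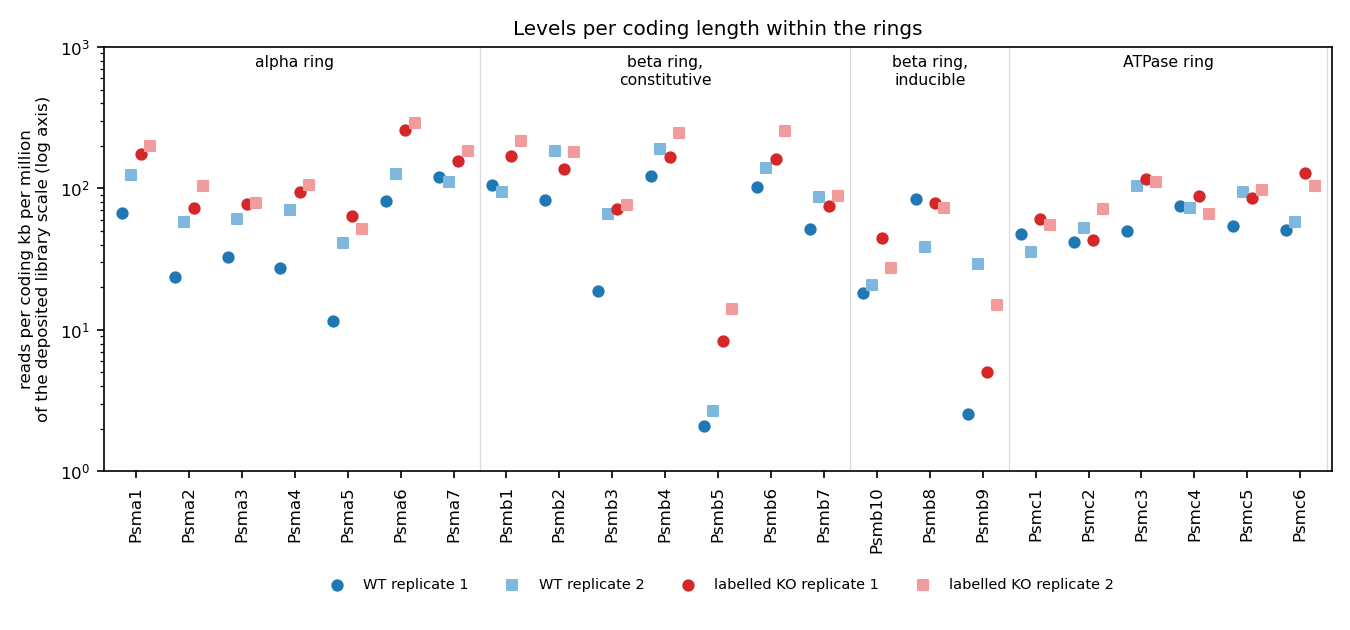
Reads per kilobase of coding sequence on the deposited library scale (vertical, log axis) for the subunits of the alpha, beta and ATPase rings in the 4 libraries. The ATPases form a narrow band, and Psma6 stands at the top of the alpha ring at 258 and 290 in the libraries labelled KO. Psmb5, at 2.09 to 14.1, lies lowest except in the labelled KO replicate 1. There the inducible Psmb9 (5.03) lies below Psmb5 (8.35).

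Features of the genes that the name rule did not use were then compared. The coding sequences of the tested members had a median GC content of 50.6%, against 53.2% for tested protein-coding genes, and the alpha ring had 45.1%. Across genes, GC content and log2 difference were negatively related to a like degree among members (Spearman rho -0.34, 47 genes) and among all tested protein-coding genes (-0.36, 9869 genes). Both are descriptions across genes of the same 4 libraries, and genes are not replicates. With the trend on GC content and coding length removed from each library, the median of the members was 0.51, beside 0.04, and 25 of 47 had both libraries labelled KO above both WT, beside 21.4%. The alpha ring then had 7 of 7 without overlap, at a median of 0.76, and the constitutive beta ring 5 of 7 (0.66). The ATPases had 2 of 6 (0.24), base and lid 5 of 11 (0.45), chaperones 4 of 7 (0.74), the inducible subunits 1 of 3 (0.51) and the activators 0 of 4 (0.31). Of the 50 members, 12 share at least 20% of the 28-base words of their longest transcript with other genes and 31 share under 5%. The 30 tested members of the latter kind had a median difference of 0.63. The spans of 24 members overlap another gene of the table, 19 of them one on the other strand, and since neither the handling of strand nor that of repeated matches is given in the sources used here, reads of such neighbours cannot be told apart. eIF5A is known for helping ribosomes through runs of proline. Only 6 of the 47 tested members (12.8%) encode at least 3 prolines in a row, against 25.7% of tested protein-coding genes. These 6, Psmb6, Psmc5, Psmd3, Psmd8, Psme2 and Psmf1, had a median difference of 0.43, and the other 41 had 0.69. This too is a description.

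Promoter sequences of RefSeq (GRCm38.p6, 250 bases before to 50 after the start of the transcript) were matched to 42 members. They were searched on both strands for the core of the antioxidant response element TGACNNNGC, which the proteasome regulators Nfe2l1 and Nfe2l2 can bind, for the ETS factor core CCGGAAG and for the CCAAT box. The first was in 12.4% of all 32851 promoter windows and in those of 6 members (Psmb5, Psmb6, Psmc6, Psmd9, Psmd12 and Psme4). The ETS core was in 8.86% of all windows and in those of 15 members, and CCAAT was in 37.4% and also in those of 15. Members holding the antioxidant core had a median log2 difference of 0.90 (6 tested) and those without it 0.63 (34 tested). Members with and without the ETS core had 0.65 and 0.75, and with and without CCAAT 0.72 and 0.58. The 6 with the antioxidant core include Psmb5 and Psmd12, which lay higher in the libraries labelled KO, and the pair of lowest members, Psmd9 and Psme4. The promoters of the most abundant alpha subunit, of an ATPase and a lid subunit that lay higher in the libraries labelled KO and of the activator that lay lower are printed from 5′ to 3′ with every match to these motifs, in either orientation, in capitals. They are at chr12:55383972-55384271 and chr12:55398575-55398874 (the 2 windows of Psma6), chr14:45329574-45329873, chr11:107479278-107479577 and chr11:30771525-30771824, all on the plus strand. A match is a description of the letters and no evidence of binding.
Psma6, upstream window: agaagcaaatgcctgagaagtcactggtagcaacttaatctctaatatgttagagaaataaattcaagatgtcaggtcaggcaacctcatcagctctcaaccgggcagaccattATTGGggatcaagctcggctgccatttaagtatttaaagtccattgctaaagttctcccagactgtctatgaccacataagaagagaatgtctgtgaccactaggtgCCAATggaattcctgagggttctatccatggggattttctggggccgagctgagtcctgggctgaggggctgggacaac
Psma6, downstream window: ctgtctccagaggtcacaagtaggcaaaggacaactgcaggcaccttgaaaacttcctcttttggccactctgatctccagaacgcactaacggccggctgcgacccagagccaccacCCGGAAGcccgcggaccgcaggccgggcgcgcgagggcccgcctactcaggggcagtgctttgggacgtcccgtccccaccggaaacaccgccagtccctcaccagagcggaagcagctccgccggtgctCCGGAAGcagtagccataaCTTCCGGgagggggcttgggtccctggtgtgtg
Psmc6: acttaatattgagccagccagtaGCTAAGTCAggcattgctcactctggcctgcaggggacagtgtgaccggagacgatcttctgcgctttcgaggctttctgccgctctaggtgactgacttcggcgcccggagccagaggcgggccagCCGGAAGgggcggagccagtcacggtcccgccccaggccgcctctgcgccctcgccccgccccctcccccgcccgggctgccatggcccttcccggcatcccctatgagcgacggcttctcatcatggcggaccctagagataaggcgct
Psmd12: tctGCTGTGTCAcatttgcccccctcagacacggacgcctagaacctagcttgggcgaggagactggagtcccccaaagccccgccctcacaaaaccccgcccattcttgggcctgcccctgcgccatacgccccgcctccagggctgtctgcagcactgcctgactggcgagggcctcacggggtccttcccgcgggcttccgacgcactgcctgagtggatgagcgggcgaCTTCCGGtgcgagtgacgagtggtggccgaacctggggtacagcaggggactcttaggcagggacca
Psme4: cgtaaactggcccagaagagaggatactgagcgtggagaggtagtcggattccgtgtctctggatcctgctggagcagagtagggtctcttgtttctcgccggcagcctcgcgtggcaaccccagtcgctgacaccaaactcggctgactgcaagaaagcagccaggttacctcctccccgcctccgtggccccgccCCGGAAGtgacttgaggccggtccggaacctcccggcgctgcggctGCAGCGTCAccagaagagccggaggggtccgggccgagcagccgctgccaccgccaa
The upstream window of Psma6 holds CCAAT in both orientations and the downstream window holds the ETS core at 3 places, and those of Psmc6, Psmd12 and Psme4 each hold the antioxidant core in its reverse orientation with an ETS core. Thus Psmd12, with a log2 difference of 1.25, and Psme4, with -0.23, carry the same pair of motifs.

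Lists of other genes of the pathway had medians from -0.28 to 0.50. Among subunits and assembly factors outside the name rule, 4 of 5 had a positive difference, at a median of 0.33. The ubiquitin receptor Adrm1 had 15 and 16 reads in WT against 19 and 24 in the labelled-KO libraries (log2 difference -0.19). The lid subunit Sem1 had 36 and 29 against 76 and 57 reads (0.33), and Pomp, the maturation factor of the core particle, had 13 and 26 against 41 and 54 (0.58). Proteasome-associated ubiquitin enzymes had 6 of 7 positive differences (median 0.50). Of the transcription factors of proteasome genes and the proteins that process them, 2 of 6 tested were positive (median -0.28). Nfe2l1, the main activator of proteasome genes when proteasome activity falls short, had 88 and 45 against 90 and 59 reads (-0.45), and Nfe2l2 had 55 and 51 against 214 and 138 reads (0.99), both named after their values were seen. Ubiquitin genes and shuttles had 9 of 14 positive (median 0.20), with the ubiquitin-activating enzyme Uba6 at 0.99 higher at an unadjusted p under 0.05 and the shuttle Ubqln4, at -1.26, lower. Antigen processing genes of MHC class I had 7 of 10 positive (median 0.23), and muscle ubiquitin ligases 3 of 4 tested (median 0.37). At an adjusted p under 0.05, limma and limma-voom called 0 genes of any of these lists, and at an unadjusted p under 0.05 limma gave the 2 genes named here, 1 higher and 1 lower, beside 2.94% and 3.04% of tested protein-coding genes. By the same measure the myoblast markers had 5 of 7 lower, beside 3.04% (Pax7 -1.59, Myf5 -2.09, Myog -3.36, Des -1.27 and Chrna1 -2.06). After adjustment limma-voom called 1 of them, Chrna1, beside 0.121% of tested protein-coding genes. Higher were 1 of 8 fibroblast markers (Postn, 1.39), 1 of 5 endothelial (Kdr, 1.01) and 1 of 5 tested immune markers (Adgre1, 1.33), beside 2.94%. Lower was 1 of 5 tested immune markers (Lyz2, -1.16), beside 3.04%. None of these passed after adjustment. Adgre1 had 1 and 3 reads in WT, at or under the floor, against 13 and 11. Differences were positive for 6 of 8 fibroblast, 5 of 5 endothelial and 3 of 5 tested immune markers.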

How the data were processed

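Ribo-seq libraries of WT (n = 2) and eIF5A KO (n = 2) primary myoblasts were analysed. Per the labels and methods, the authors removed rRNA and tRNA reads, aligned the rest to mm10 by TopHat2 and used HTSeq with Ensembl 97 models for counting. Deposited values are RPKM, scaled by the authors to a median-of-ratios library size. RPKM times gene length, divided by the smallest such product above 0 in each library, gave whole reads for 100% of values (within 0.01 read). A shift common to most genes does not show after the scaling to library size. Wilson intervals (95%) and the floor of 3 reads cover counting error only, and limma intervals reflect the spread between libraries. Limma 3.58.1 (R 4.3.3, lmFit, eBayes with trend) was fitted on log2(RPKM + 1) for the 11363 genes whose mean RPKM reached 1, with Benjamini-Hochberg adjustment over all of them, a scale that understates changes of low genes. Single values were compared with exact permutation tests (scipy 1.17.1). Scripts were tested on simulated data. Coding features, and shared 28-base words of the longest protein-coding transcript, came from GENCODE vM21, which held 99.8% of the gene identifiers (99.6% of those at the same position). Named genes were the 6 catalytic beta subunits, in each class those highest and lowest in RPKM and in difference, those at an unadjusted p under 0.05, and the members outside the classes; other members are given by difference or reads. The members and lists were chosen with earlier results of these data known. Alternatives were the pseudocount, filters, scaling, limma-voom, a replicate block, GC and length correction and leaving out each library. RNA-seq was not analysed here, so mRNA level and translation cannot be told apart. 1 gene of the pathway lists is not reported here.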

Additional observations from a re-analysis of the deposited data

How the results depend on the processing

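No member passed an adjusted p under 0.05 in any of the 15 alternatives (smallest adjusted p 0.146 in limma). At an unadjusted p under 0.05, 0 members were lower in any, beside 0.474% (scaling to total reads) to 5.71% (limma-voom) of tested protein-coding genes. The 6 members higher at that unadjusted p became 13 in a fit of protein-coding genes only (beside 4.23% of tested protein-coding genes), 3 when libraries were scaled to protein-coding reads (2.07%), 28 when scaled to total reads (16.4%), 10 under the replicate block after correction for GC content and length (5.05%), and 0 to 20 with 1 library left out (0.871% to 7.50%; 20 without WT replicate 2 and 0 without KO replicate 2). The replicate block alone gave 5 (2.80%), with 27 members higher without overlap (22.4%), and changed no other count. The replicate numbers share only a number, since deviations of same-numbered libraries correlated at 0.0716 over 9877 genes. The 27 members with both libraries labelled KO higher became 45 under total-read scaling, beside 47.0%, and 29 to 40 with 1 library left out, beside 34.2% to 39.8%. The 1 member lower, beside 19.3%, became 0 after correction for GC content and length (0 with the replicate block added), beside 18.7%, 2 under protein-coding scaling (22.7%), 0 under total-read scaling (5.86%) and 2 to 6 with 1 library left out (30.0% to 38.0%).

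Under total-read scaling, which put the protein-coding median at 0.54, the medians were 1.25 for all members, 1.68 for the alpha ring, 1.35 for the constitutive beta ring, 0.96 for the inducible subunits, 1.02 for the ATPases, 1.29 for base and lid, 1.15 for activators and 1.63 for chaperones. With 1 library left out, the medians ran from 0.31 to 0.99 for all members, 0.55 to 1.67 for the alpha ring, 0.17 to 1.02 for the constitutive beta ring, 0.34 to 0.86 for the inducible subunits, 0.12 to 0.56 for the ATPases, 0.21 to 1.18 for base and lid, 0.35 to 0.65 for activators and 0.35 to 1.38 for chaperones; apart from the inducible subunits, the lowest value came without WT replicate 1. The inducible median was 0.51 after correction for GC content and length (0.51 with the replicate block), 0.58 at 40 reads or more, 0.58 at a mean RPKM of at least 5 and 0.28 under protein-coding scaling. The activator median was 0.31 with the trend removed (0.31 with the replicate block) and 0.46 under protein-coding scaling. The inducible share difference ran from -11.2 to 2.97 percentage points with 1 library left out, turning positive at 2.97 without WT replicate 1 and 0.95 without KO replicate 2. Coefficients of variation by RPKM in place of coding length were 95.1%, 76.0% and 48.8% for the alpha, constitutive beta and ATPase rings, against 53.7%, 58.3% and 25.3% by coding length.

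Of 411 values of named genes under alternatives, 390 kept their direction. Those that turned, with their range over the fits without 1 library, were Psmb7 (-0.015 after the GC correction, also with the replicate block; -0.087 to 0.61), Psmb8 (-0.14 to 0.91), Psmb9 (0.23 under total-read scaling; -1.23 to 0.87), Psmc2 (-0.10 to 0.59), Psmc3ip (-0.11 to 1.13), Psmc4 (-0.071 under protein-coding scaling; -0.16 to 0.24), Psmc5 (-0.038 to 0.74), Psmd6 (-0.17 to 1.55) and Psmd11 (-0.076 to 1.18). Psmd8 turned to 0.0027 after the GC correction (also with the replicate block) and 0.51 under total-read scaling (-0.30 to 0.12 without 1 library). Psmd9 (0.18) and Psme4 (0.33) turned under total-read scaling. Others kept their direction but moved by over 1.5 times without 1 library, among them Psma2 (0.55 to 1.67), Psmb6 (0.43 to 1.07), Psmb10 (0.44 to 1.11), Psme1 (0.26 to 0.73), Psme2 (0.11 to 3.31), Psmf1 (0.16 to 0.85) and Psmg2 (0.91 to 1.93). The cause was not tested. A fit with 1 library left out assumes that the lone library varies like the others.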
